A study of Mus musculus with 6 samples.

Results

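The G protein-coupled receptors through which beta cells sense hormones, transmitters and nutrients were followed over 6 mouse arrays, as the probe sets whose only gene symbol was Tacr3, Cckar, P2ry1, Glp1r, Gipr, Gcgr, Ffar1, Adra2a, Sstr3 or Chrm3. The rule found 8 of these 10 genes, among 18194 named genes, with 11 of 45101 probe sets. Ffar1 and Adra2a had no named probe set in the gene table and were not analysed here. Tacr3, Cckar and P2ry1 were chosen by their low values on the miR-7 arrays of MIN6 cells, so their values in that comparison are given as a description, without a test.

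The arrays held RNA of MIN6 cells, a mouse insulin-secreting beta-cell line, and of pancreatic islets. MIN6 cells had received an adenovirus for miR-7a2 (AdmiR7a, 2 arrays), for miR-7b (AdmiR7b, 1 array) or, as control, for green fluorescent protein (AdGFP, 1 array). All MIN6 cells, controls included, had thus been exposed to virus, at a multiplicity of infection of 250 over 48 h, with glucose at 4.5 g/l and serum at 2% in the medium. Islets came from C57BL/6 mice with a beta-cell deletion of miR-7a2 by the Lox/Cre system (KO, 1 array) or from mice without the deletion, labelled wild type (WT, 1 array). The Cre driver, the age of the mice, pooling of animals and whether WT mice carried Cre are not given in the sources used here.

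Receptors of this class couple to a few families of G protein. In beta cells, receptors on the Gs arm raise cyclic AMP and those on the Gq arm release calcium and activate protein kinase C, and both amplify insulin secretion that glucose has started. Receptors on the Gi and Go arm oppose it. Glp1r and Gipr are the incretin receptors, Gcgr is the glucagon receptor, Cckar, P2ry1, Chrm3 and the neurokinin receptor Tacr3 signal mainly through Gq, and Sstr3 is a somatostatin receptor on the inhibitory arm.

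The mature sequences of the overexpressed microRNAs are shown to describe the AdmiR7a and AdmiR7b vectors. A link of these sequences to differences between the vectors' arrays was not tested. Capitals mark the seed, bases 2 to 8, which pairs with target transcripts and is the same in both. The sequences are those of RefSeq on GRCm38.p6. From the 5′ end, miR-7b differs from miR-7a by A10U and is 24 rather than 23 bases long. miR-7a is encoded by Mir7-2 on chromosome 7 and by Mir7-1 on chromosome 13, and the deleted gene miR-7a2 is Mir7-2. miR-7b is encoded by Mir7b on chromosome 17.
miR-7a: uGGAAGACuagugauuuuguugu
miR-7b: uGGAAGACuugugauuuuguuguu

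All values below are log2 probe set intensities as deposited, made with GCRMA. The lowest value in the table was 2.17, shared by 28.3% to 29.7% of probe sets on each array, and values under 4 are treated here as not distinguishable from background. On GRCm38.p6 the measured genes lie at chr3:134829007-134934581 (Tacr3), chr5:53698485-53707704 (Cckar), chr3:61002785-61008982 (P2ry1), chr17:30901867-30936510 (Glp1r), chr7:19156063-19170248 (Gipr), chr11:120529185-120538989 (Gcgr), chr15:78537014-78549365 (Sstr3) and chr13:9875486-10361062 (Chrm3), per RefSeq. Levels of different probe sets are not compared with each other. Differences between miR-7 and AdGFP arrays had an SD over genes of 0.509 to 0.575, and those among miR-7 arrays one of 0.194 to 0.215. Hybridisation controls lay between 11.3 and 11.4 on the miR-7 arrays and at 11.1 on the AdGFP array. Of 8 beta-cell marker genes, 7 lay above 4 in MIN6 cells and the glucose transporter gene Slc2a2 did not (2.52 on each miR-7 array, 3.84 on the AdGFP array). The median difference of these markers between the miR-7 arrays and AdGFP was -0.74, and the part of this in the receptor differences was not tested. In MIN6 cells all 5 immune, all 4 acinar, all 5 stellate and 4 of 5 endothelial marker genes with a probe set were below 4, whereas the glucagon gene Gcg of alpha cells (12.7 to 12.9 with miR-7, 13.4 with AdGFP) and the somatostatin gene Sst of delta cells (9.28 to 9.54 with miR-7, 9.64 with AdGFP) were not.

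**Figure D1:**
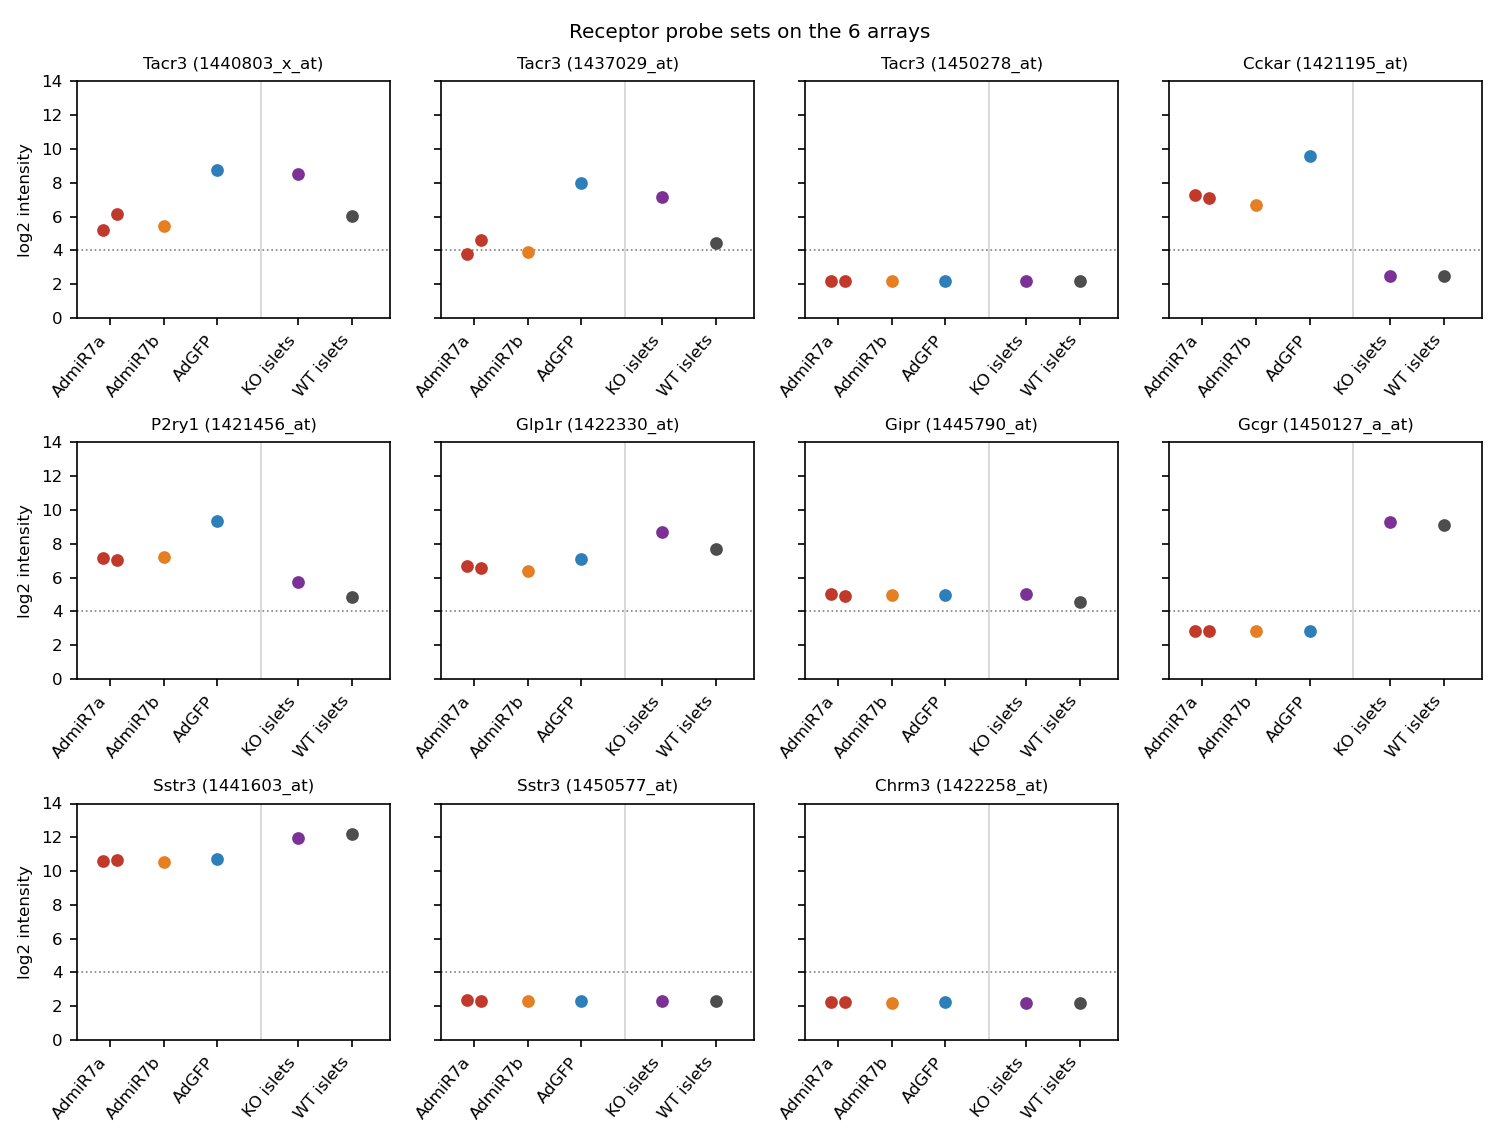
Log2 intensity (y axis) of each receptor probe set on the 6 arrays, 1 point per array, with MIN6 arrays left and islet arrays right of the grey line and a dotted line at 4. Tacr3, Cckar and P2ry1 are lower on all 3 miR-7 arrays than on the AdGFP array; Tacr3 is high again in KO islets, Cckar lies at 2.48 in both islet samples, and 1 probe set each of Tacr3 and Sstr3 lies near 2.2 to 2.4 throughout.

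Tacr3, the receptor for neurokinin B, showed the widest differences among these receptors in both systems: it was lower with miR-7 in MIN6 cells and higher in KO than in WT islets. Its probe set with the highest level in both systems, which has the suffix x, read 5.22 and 6.14 with AdmiR7a and 5.47 with AdmiR7b, against 8.74 with AdGFP. None of the 3 miR-7 arrays came near the control array. A second probe set gave the same picture, reading 3.81 and 4.603 with AdmiR7a and 3.93 with AdmiR7b, against 7.98 with AdGFP. The miR-7 arrays averaged 8.77-fold below AdGFP by the first probe set and 14.6-fold below it by the second, where 2 of the 3 miR-7 values lay under 4. Only 2 of the 10369 genes tested stood lower relative to AdGFP than Tacr3. Tacr3 had been picked for this fall, so nothing is read from the rank. Among the members, Tacr3 also had the widest spread between its miR-7 arrays, with an SD of 0.48 (n = 3) by the first probe set.

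In islets Tacr3 read 8.53 in KO, against 6.04 in WT, by the first probe set, and 7.14 in KO, against 4.46 in WT, by the second. KO exceeded WT 5.61-fold and 6.41-fold by these probe sets. Of 10568 islet genes, 11 had a larger difference in this direction. The third Tacr3 probe set stood at 2.17 on each of the 6 arrays, the table's lowest value at this rounding. The suffix x marks a probe set in which some probes can match other transcripts, and the second probe set, without that suffix, gave the same directions. The KO minus WT difference was 2.49 by the first probe set and 1.72 with all 3 averaged, the silent one included.

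Cckar, a receptor for cholecystokinin that responds to its sulfated peptides, was lower with miR-7 in MIN6 cells and below background in islets. Its probe set read 7.30 and 7.12 with AdmiR7a and 6.71 with AdmiR7b, against 9.58 with AdGFP, on average 5.81-fold below the control. All 3 miR-7 arrays lay below the lone AdGFP array, which follows from the choice of Cckar, and the AdmiR7b array was the lowest of the 3. In islets the same probe set stood at 2.48 in both KO and WT, so no genotype difference could be read from it. P2ry1, the ADP receptor P2Y1, read 7.17 and 7.05 with AdmiR7a and 7.21 with AdmiR7b, against 9.35 with AdGFP. Its 3 miR-7 values lay within 0.17 of one another and averaged 4.62-fold below AdGFP. In islets P2ry1 read 5.76 in KO and 4.86 in WT, 1.87-fold higher in KO (0.90, log2).

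**Figure D2:**
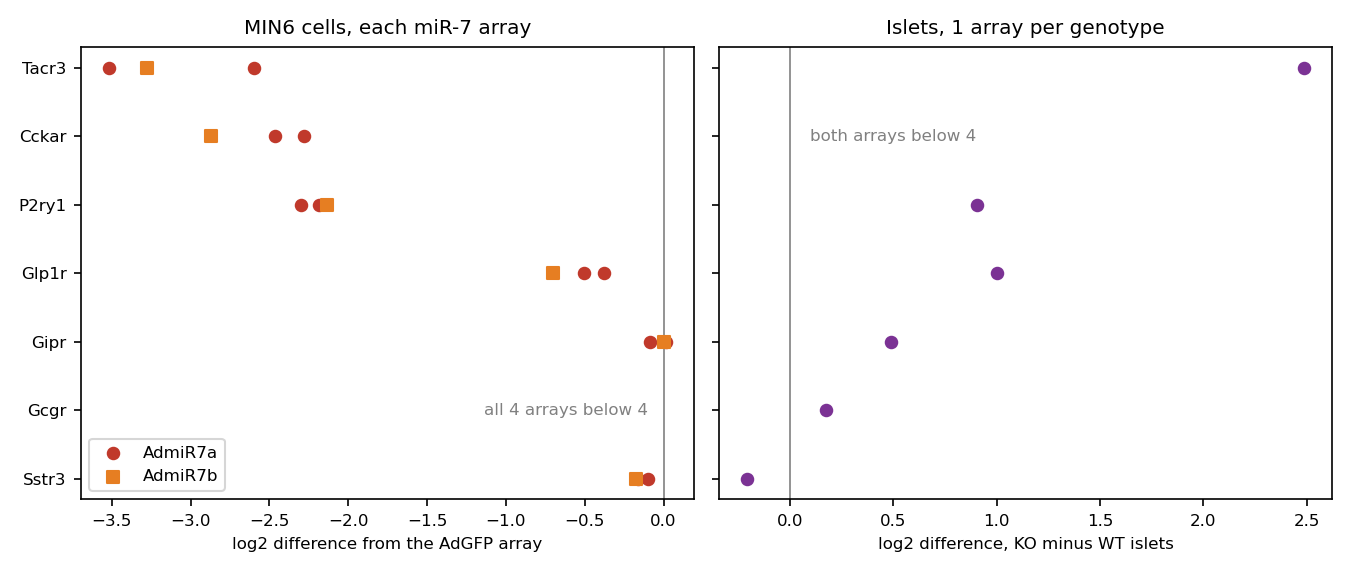
Log2 differences (x axis) of 7 receptor genes: left, each miR-7 array from the AdGFP array; right, KO from WT islets, 1 array each. Tacr3, P2ry1 and Glp1r lie left of 0 on every miR-7 array and right of 0 in islets, whereas Gipr and Sstr3 lie near 0 in MIN6 cells; Cckar in islets and Gcgr in MIN6 cells were below 4.

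The receptors not picked for their fall showed small differences with miR-7, and none passed the test. Glp1r, the receptor for glucagon-like peptide 1, read 6.70 and 6.57 with AdmiR7a and 6.38 with AdmiR7b, against 7.08 with AdGFP. All 3 miR-7 arrays lay below the control, by 0.38 to 0.70, but these differences share the lone AdGFP array. Of 10369 genes tested, 1123 stood lower relative to AdGFP than Glp1r. With the 3 miR-7 arrays pooled against AdGFP in limma the difference was -0.53 ± 0.15 (log2, SE), with a 95% interval of -0.94 to -0.11, an unadjusted p of 0.0244 and an adjusted p of 0.0725 over all genes. That value moved across the threshold with the processing, between adjusted p = 0.0406 with a filter at 6 and adjusted p = 0.265 with no filter. Gipr, the receptor for glucose-dependent insulinotropic polypeptide, read 5.01 and 4.91 with AdmiR7a and 4.998 with AdmiR7b, against 4.998 with AdGFP, a limma difference of -0.02 ± 0.08 (interval -0.25 to 0.20, adjusted p = 0.856). The AdGFP value lay inside the range of the miR-7 arrays. Sstr3 read 10.6 on each miR-7 array, against 10.7 with AdGFP, a difference of -0.15 ± 0.08 (interval -0.36 to 0.06, adjusted p = 0.219). Its second probe set stood at 2.32 to 2.39 on the MIN6 arrays and at 2.30 in KO and 2.32 in WT islets.

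Of the 6 receptor genes above 4 in MIN6 cells, 3 had been picked, and of the other 3 none fell and none rose, where 11.9% of all 10369 genes tested fell and 14.3% rose. The pooled fit takes the spread of the 3 miR-7 arrays for the lone AdGFP array too, and whether the AdmiR7a arrays came from separate cultures is not stated, so p-values measure only the spread between these arrays. By size, with no test, 3 of the 6 receptors stood at least 1 (log2) lower with AdmiR7b than with AdGFP, the 3 that had been picked on these arrays, so the count follows from the choice and nothing is read from it beside the 4.26% of all genes that did. Chrm3, a muscarinic acetylcholine receptor, read 2.21 to 2.28 with miR-7 and 2.28 with AdGFP. Gcgr read 2.83 to 2.87 with miR-7 and 2.83 with AdGFP. Both were therefore below background in MIN6 cells, and no difference could be read.

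Between the vectors, no receptor passed the test, and the intervals leave room for differences. With 1 AdmiR7b array, their spread comes from the 2 AdmiR7a arrays, so variation between AdmiR7b samples is not measured. In limma, AdmiR7b minus AdmiR7a was -0.50 ± 0.12 for Cckar (log2, SE; interval -0.92 to -0.08, unadjusted p = 0.0342, adjusted p = 0.737), the only one of the 6 receptors with an interval that left out 0. For Glp1r it was -0.26 ± 0.10 (interval -0.60 to 0.08), for Tacr3 -0.22 ± 0.51 (interval -2.02 to 1.58), for P2ry1 0.11 ± 0.09 (interval -0.22 to 0.43), for Sstr3 -0.04 ± 0.07 (interval -0.31 to 0.22) and for Gipr 0.03 ± 0.09 (interval -0.27 to 0.34). None of the 6 passed the adjusted threshold, nor did any other gene (0% of 10369 genes, with 608 at an unadjusted p under 0.05). The interval for Tacr3 is wide enough to hold differences of over 1 in either direction.

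In islets the incretin receptors stood higher in KO, with 1 array per genotype and no test. Glp1r read 8.70 in KO, against 7.70 in WT, 2.00-fold higher in KO. Gipr read 5.06 in KO and 4.57 in WT, a difference of 0.49 that 613 of 10568 genes exceeded. Differences between the 2 islet arrays had an SD over genes of 0.388. Gcgr was well above background here, with 9.30 in KO and 9.13 in WT. Sstr3 was the only one of the 6 receptors above 4 in islets that stood lower in KO, with 11.97 in KO and 12.2 in WT. Chrm3 stayed below background, at 2.19 in KO and 2.18 in WT.

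Tacr3 and Glp1r were at least 1 (log2) higher in KO, 2 of 6 receptors, where 1.36% of 10568 genes were, and 0 of 6 were that much lower, where 1.29% of genes were. At a size of 0.58, P2ry1 joined them, giving 3 of 6, where 4.11% of genes were higher and 4.72% lower. The median of the 6 differences was 0.70, and that of all genes -0.03. The members were listed with these results known, and with the islet arrays quantile-normalized alone Glp1r was at 0.97, which left 1 of 6 at a size of 1. In whole islets, fewer cells of a type and less RNA per cell cannot be told apart. Alpha-cell markers averaged 12.4 in KO and 12.3 in WT (3 genes), delta-cell markers 12.2 in both (3 genes), and beta-cell markers 13.9 in KO and 13.8 in WT (8 genes). The neural markers averaged 5.65 in KO and 5.28 in WT (2 genes), with Tubb3 at 8.28 in KO and 7.54 in WT and the other below 4, and single beta-cell markers ranged from -0.43 (Ucn3) to 0.73 (Nkx6-1) in KO minus WT. The ductal marker Krt19 read 4.45 in KO and 2.68 in WT, while Sox9 and Cftr were below 4 in both. Poly-A control transcripts read 8.86 in KO and 10.1 in WT. Their part in the receptor differences was not tested.

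Stretches before the gene start of Tacr3, P2ry1 and Glp1r are shown because these receptors were lower on every miR-7 array and higher in KO islets; Cckar and Gipr are not in the promoter table used. Each is the 250 bases before the start in RefSeq, 5′ to 3′ on the gene's own strand, which is the plus strand of GRCm38.p6 for all 3. Capitals mark 3 motifs, searched as letters on both strands. One is TGACG, a core of the cAMP response element to which the factor CREB binds. Another is TATAAA, the TATA box of many promoters. The last is GGGCGG, the GC box that Sp1 binds. Tacr3 lies at chr3:134828757-134829006, P2ry1 at chr3:61002535-61002784 and Glp1r at chr17:30901617-30901866.
Tacr3: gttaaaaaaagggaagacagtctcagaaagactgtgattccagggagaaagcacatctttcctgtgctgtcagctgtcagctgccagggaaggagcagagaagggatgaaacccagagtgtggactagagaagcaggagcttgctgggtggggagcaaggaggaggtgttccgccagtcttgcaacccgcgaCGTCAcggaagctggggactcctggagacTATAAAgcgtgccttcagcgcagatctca
P2ry1: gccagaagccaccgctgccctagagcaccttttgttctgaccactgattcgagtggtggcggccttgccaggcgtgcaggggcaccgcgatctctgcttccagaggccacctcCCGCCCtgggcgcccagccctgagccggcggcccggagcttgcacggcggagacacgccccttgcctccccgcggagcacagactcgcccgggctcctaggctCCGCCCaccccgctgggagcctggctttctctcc
Glp1r: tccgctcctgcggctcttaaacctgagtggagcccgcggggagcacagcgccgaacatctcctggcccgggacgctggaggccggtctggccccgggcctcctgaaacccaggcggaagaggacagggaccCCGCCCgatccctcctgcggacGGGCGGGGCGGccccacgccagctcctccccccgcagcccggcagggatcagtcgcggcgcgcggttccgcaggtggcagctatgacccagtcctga

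The 3 stretches differ in makeup. That of Tacr3 held a response element core 58 bases and a TATA box 29 bases before the start, no GC box, and 54.4% G and C. That of P2ry1 held 2 GC boxes, with 70.8% G and C, and that of Glp1r held 3 GC boxes, 2 of them overlapping, with 73.2%. Among 32851 promoter stretches of this length, 17.8% held the response element core, 12.4% the TATA box and 32.7% the GC box. Measured receptors not shown held matches too: Gcgr 2 GC boxes with 70.4% G and C, and a stretch of Sstr3 the response element core 9 bases before the start. Another stretch of Sstr3 and that of Chrm3 held none of the motifs. A match describes letters only, and a link of the motifs to the receptor differences was not tested. Transcript 3′ ends, where microRNA sites usually lie, were not analysed here.

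Further receptor and ligand genes of the cholecystokinin and tachykinin systems were read on the same arrays. Cckbr, the receptor that binds both cholecystokinin and gastrin, read 8.57 and 8.52 with AdmiR7a and 8.49 with AdmiR7b, against 9.86 with AdGFP, and fell by 1.33 ± 0.08 in the pooled limma fit (adjusted p = 0.010). The gene of their ligand, Cck, read 15.5 to 15.6 with miR-7 and 15.7 with AdGFP (difference -0.09, adjusted p = 0.471). In islets, Cckbr (2.60 in KO, 2.40 in WT) and Cck (3.27 in KO, 2.995 in WT) were below background, as Cckar was. Tac1, which encodes substance P and neurokinin A, read 7.69 and 7.81 with AdmiR7a and 7.64 with AdmiR7b, against 8.52 with AdGFP, and fell by 0.81 ± 0.10 (adjusted p = 0.0176). In islets it read 6.15 in KO and 5.18 in WT, the same directions as Tacr3. The neurokinin B gene Tac2 and the other neurokinin receptor genes Tacr1 and Tacr2 were below 4 in both systems. At the filter of 4, 0 genes passed the pooled limma fit with any single miR-7 array dropped, the genes named here as risen or fallen among them: the lowest adjusted p was 0.065 without the first AdmiR7a array, 0.0772 without the second and 0.0667 without AdmiR7b. The fit without AdmiR7b, which is AdmiR7a against AdGFP, had 3811 genes at an unadjusted p under 0.05 and called 1737 genes with a filter at 6, 967 with the mean of probe sets and 350 with no filter.

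**Figure D3:**
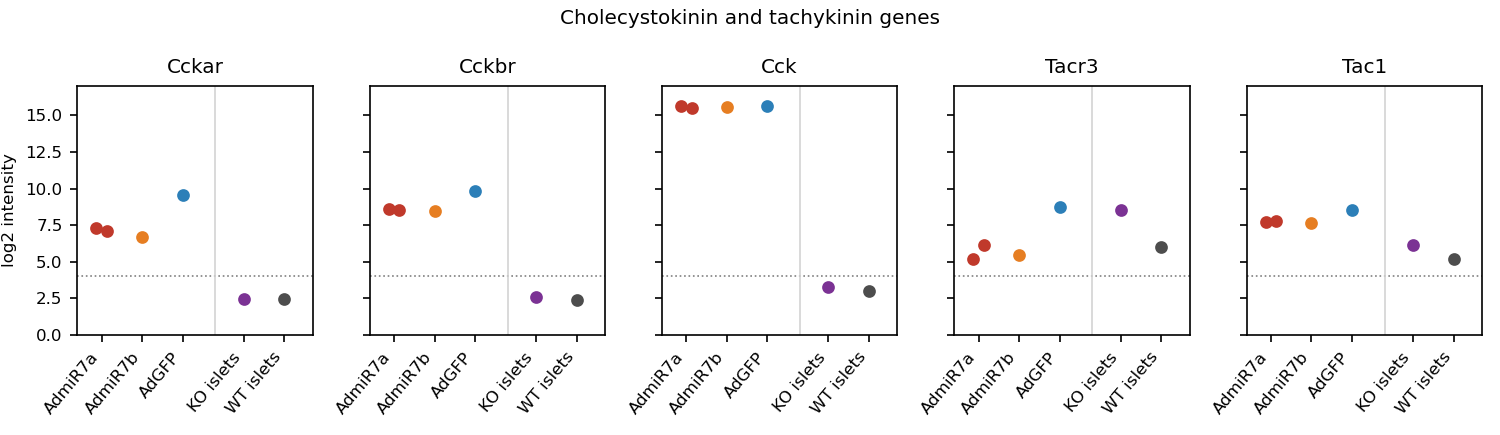
Log2 intensity (y axis) of cholecystokinin and tachykinin genes on the 6 arrays, 1 point per array, with a dotted line at 4. Cckar, Cckbr and Cck are above 4 in MIN6 cells and below 4 in both islet samples; Tacr3 and Tac1 are lower with miR-7 than with AdGFP and higher in KO than in WT islets.

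Of 49 related receptors listed, 35 had a probe set and 5 were above 4 in MIN6 cells, of which 2 fell and 1 rose (median -0.42, against 0.06 over all genes tested, of which 11.9% fell and 14.3% rose). Besides Cckbr, the corticotropin-releasing hormone receptor gene Crhr1 fell by 0.83 ± 0.10 (adjusted p = 0.0162). The short-chain fatty acid receptor gene Ffar2 read 8.11 to 8.23 with miR-7, against 7.28 with AdGFP, and rose by 0.89 ± 0.09 (adjusted p = 0.0132). Vipr1, a receptor for vasoactive intestinal peptide in the same family as Glp1r, was at -0.42 (adjusted p = 0.0943). The somatostatin receptor genes Sstr1, Sstr2, Sstr4 and Sstr5 and the muscarinic receptor genes Chrm1 and Chrm4 were below 4 in both systems. In islets, 8 related receptors were above 4, with a median difference of 0.01. The UDP-glucose receptor gene P2ry14 was 1.45 higher in KO (6.41 in KO, 4.96 in WT). Crhr1, named after its values were seen because its level was under 6, read 3.51 in KO, below 4, and 5.05 in WT, so the size of its difference cannot be read.

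Of 7 measured ligand genes, 2 fell with miR-7 and 0 rose (median -0.15), beside 11.9% and 14.3% of all genes. The second was Gcg, source of glucagon and glucagon-like peptide 1, which fell by 0.53 ± 0.11 (adjusted p = 0.0423) in MIN6 cells and was at -0.09 in islets. Npy, a neuropeptide that acts through Gi-coupled receptors, read 13.1 in KO and 10.2 in WT islets, and Vip read 8.82 in KO and 7.67 in WT islets. These were the 2 of 7 ligand genes at least 1 higher in KO, beside 1.36% of all genes.

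Downstream of the Gs-coupled receptors, 4 of 23 genes fell and 1 rose (median -0.13), where 11.9% of all genes fell and 14.3% rose. Adcy9, an adenylyl cyclase gene, read 9.21 and 9.25 with AdmiR7a and 9.02 with AdmiR7b, against 10.2 with AdGFP, and fell by 1.08 ± 0.12 (adjusted p = 0.016). Another adenylyl cyclase gene, Adcy1, fell by 0.58, the regulatory subunit gene of protein kinase A Prkar1a fell by 0.69 and the phosphodiesterase gene Pde1c fell by 0.65. The catalytic subunit gene Prkacb rose by 0.36 (adjusted p = 0.0352). Gnas, which encodes the Gs alpha subunit and is named after its values were seen, was at 0.01 (adjusted p = 0.921). In islets none of 24 genes was at least 1 higher in KO and 2 were at least 1 lower, beside 1.36% and 1.29% of all genes. These were Adcy7 (4.93 in KO, 6.38 in WT) and Adcy3 (3.61 in KO, 4.78 in WT), the second named after its values were seen and below 4 in KO, so that its size cannot be read. At a size of 0.58, Pde10a was higher (0.66) and Prkar2b lower (-0.69).

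On the Gq arm, which serves Tacr3, Cckar and P2ry1, 4 of 18 genes rose and 2 fell (median 0.12), where 14.3% of all genes rose and 11.9% fell. Prkcb, the gene of protein kinase C beta, read 9.02 and 8.95 with AdmiR7a and 8.67 with AdmiR7b, against 10.7 with AdGFP, and fell by 1.84 ± 0.17 (adjusted p = 0.0132). The phospholipase C gene Plcb1 fell by 0.71. The kinase genes Prkd2 and Prkca rose by 0.70 and 0.47. Itpr3, an inositol trisphosphate receptor gene, and Plcb3 also rose, by 1.95 and 0.53, and are named after their values were seen, since neither reached 6. Itpr3 was below 4 with AdGFP (2.97), so its difference is limited by the background. The Gq alpha subunit gene Gnaq, likewise named after its values were seen, was at 0.13 (adjusted p = 0.709). In islets 2 of 19 genes were at least 1 lower in KO (1.29% of all genes were), Itpr2 (6.76 in KO, 8.32 in WT) and the diacylglycerol kinase gene Dgka (4.88 in KO, 6.06 in WT), and 0 were that much higher (1.36% of all genes were). Prkcd was at -0.72. Prkcb and Plcb1 were under the size set for naming islet genes and are named after their values were seen. Prkcb was 0.56 higher in KO, whereas Plcb1, which had also fallen with miR-7, was at -0.54.

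Subunits of Gi and Go and their partners included 4 of 14 genes that rose and 1 that fell (median 0.32), where 14.3% of all genes rose and 11.9% fell. Gnai1, an inhibitory alpha subunit gene, read 8.52 and 8.71 with AdmiR7a and 8.86 with AdmiR7b, against 7.90 with AdGFP, and rose by 0.80 ± 0.16 (adjusted p = 0.0352). Gng3, Gnao1 and Gnb1 rose by 0.61, 0.49 and 0.37, whereas Gng12 fell by 0.43. In islets 1 of 15 genes was at least 1 lower in KO, where 1.29% of all genes were, and 0 were that much higher, where 1.36% were. This was the potassium channel gene Kcnj3 (3.48 in KO, 4.62 in WT), named after its values were seen and below 4 in KO, so that its size cannot be read. The gamma subunit gene Gng11 was at -0.73 (9.20 in KO, 9.93 in WT). Of 5 endothelial markers, Pecam1, Esm1 and Plvap were at -1.11, -0.78 and -0.20, and 2 stood higher in KO, Cdh5 (0.14) and Kdr (0.02). The markers had a median of -0.20 and a mean level of 8.59 in KO and 8.98 in WT. Their part in the Gng11 value was not tested.

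Among genes that end or shape receptor signalling, 4 of 16 fell and 1 rose (median -0.14), beside 11.9% and 14.3% of all genes. Ramp2, an accessory protein of class B receptors, read 6.996 and 7.05 with AdmiR7a and 7.01 with AdmiR7b, against 8.27 with AdGFP, and fell by 1.25 ± 0.07 (adjusted p = 0.010). The regulators of G protein signalling genes Rgs4 and Rgs2 fell by 0.77 and 0.71, and the receptor kinase gene Grk6 fell by 0.70. The arrestin gene Arrb2 rose by 0.65. In islets 0 of 18 genes reached a size of 1, where 1.36% of all genes were that much higher in KO and 1.29% lower. Rgs3 was 0.87 higher in KO.

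**Figure D4:**
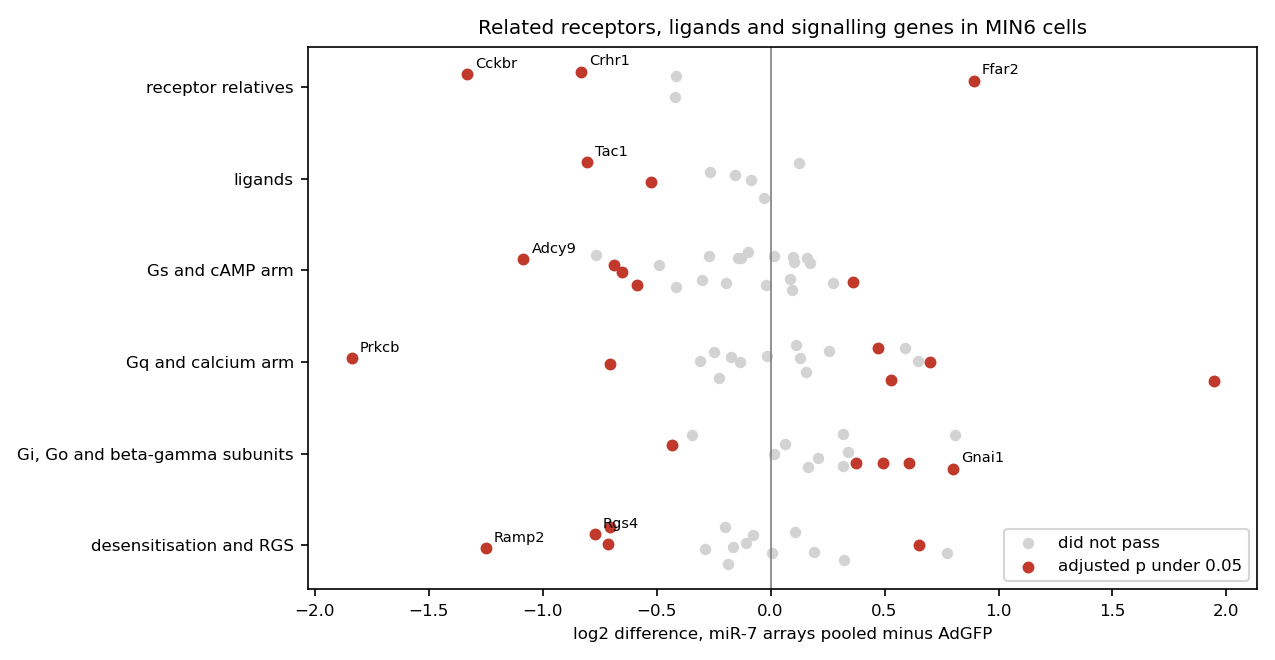
Log2 difference of the miR-7 arrays from the AdGFP array (x axis) for the genes of 6 lists with a mean of at least 4 in MIN6 cells, 1 point per gene, red where the limma adjusted p was under 0.05. Each list holds both fallen and risen genes except the ligands, where 2 fell; the named genes are those past a size of 0.75 with a level of at least 6.

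The genes whose pattern over the 6 arrays lay closest to that of each picked receptor were found after subtracting each gene's mean within MIN6 cells and within islets, among 9781 genes. For Tacr3 these were Cth (distance 1.25, log2), Ctsk (1.35) and Praf2 (1.38), all farther away than those of the other receptors. For Cckar they were Dym (0.45), Gm15706 (0.49) and the complexin gene Cplx1 (0.57). Cckar itself was below 4 in islets (2.48 in KO and WT) and not among the 9781 genes. Its islet part is therefore background, and its likeness rests on the MIN6 arrays. For P2ry1 they were Fmn1 (0.29), Hhat (0.33) and Hspa1b (0.41). Their differences were -2.26 to -1.89 from AdGFP and 0.63 to 0.88 between KO and WT. All these genes were chosen by these same values, so the shared differences follow from the rule.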

How the data were processed

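RNA of 4 MIN6 samples and 2 islet samples had been hybridised to Affymetrix mouse arrays. The deposited values are log2 intensities per probe set that the authors made with GCRMA and the affy package, per the submitters' processing notes, which give no versions; the log2 scale was read from the values. GCRMA estimates background from the sequence of each probe and equalises the distributions of arrays, so small signals collapse near the table's minimum.

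Probe sets with 1 symbol (34958 of 45101) gave 18194 genes. Each gene took the probe set with the highest mean in MIN6 cells or in islets, and genes with a mean of at least 4 were kept. The 3 miR-7 arrays were set against AdGFP in a pooled fit with limma 3.58.1 (in R 4.3.3; two-sided, Benjamini-Hochberg over 10369 genes, threshold 0.05, 4 arrays), and the vectors with each other in a fit of 1 mean for each. With 1 array per group, AdmiR7b minus AdGFP and KO minus WT had no test. That pooled comparison was first tested on simulated data with known changes, set in 200 of 10369 genes. It picked out 24% of the genes altered by 0.58 (log2) and 72% of those altered by 1. At sizes of 2 and 3 it picked out 88% and 96%, and 5 calls were false. A gene that did not pass can therefore still differ, most of all at small sizes. Alternatives were the filter, the choice of probe set, centring, quantile normalization, a trend in the variance and leaving out each miR-7 array. The number of arrays limits the precision.

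Members and lists were chosen with earlier results of these data known. Named from the lists were up to 4 genes per direction past the test and, in islets, up to 3 past a log2 size of 0.58, with a level of at least 6. The likeness rule took the 3 genes at the smallest Euclidean distance. Sequences are from RefSeq (GRCm38.p6), where 8 of the 10 genes had a promoter. Gene symbols were matched through Entrez identifiers (34754 probe sets), and older list symbols through synonyms.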

Additional observations from a re-analysis of the deposited data

How the results depend on the processing

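With no filter the pooled fit called 981 genes in place of 2715, and leaving out 1 miR-7 array called 0 in each case, with 1 residual degree of freedom; the other settings gave 2570 to 3366. AdmiR7a against AdGFP alone called 0 genes, but 1737 with a filter at 6, 967 with the mean of probe sets and 350 with no filter. By size, AdmiR7b against AdGFP gave 842 genes, 2417 at a size of 0.58, 557 with the mean of probe sets, and 0 in limma with the AdmiR7a pair supplying the spread (3915 at an unadjusted p under 0.05). KO against WT islets gave 280, 933 at a size of 0.58 and 183 with the mean of probe sets. The cause was not tested.

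Tacr3, Cckar and P2ry1 kept their direction in each of the 9 settings run in MIN6 cells, at -3.40 to -2.33, -2.67 to -2.37 and -2.24 to -2.16. They had been picked for their fall on these same arrays, so this follows from the choice and nothing is read from it. The -2.33 of Tacr3 came from the mean of its probe sets, the silent one included. Glp1r kept its direction in the 9 settings (-0.60 to -0.44) and passed the threshold in 3 of them, a filter at 6 (adjusted p = 0.0406), centring (0.0471) and quantile normalization of the MIN6 arrays alone (0.0473). Values under 4 and single arrays limit the rest.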
